A study of Homo sapiens with 4 samples.

Results

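ALKBH5 and FTO, the genes of the 2 demethylases known to remove N6-methyladenosine (m6A) from mRNA, were examined for m6A peaks on their own transcripts in lung adenocarcinoma cells sensitive or resistant to cisplatin. The rows that carried either gene name were taken from both deposited peak lists, and rows with the same position, strand and exon blocks were counted as 1 distinct peak. This gave 15 distinct peaks of 59388 in all, 11 of 32069 in A549/DDP and 4 of 27319 in A549. The sensitive line was A549, long used as a model of human lung adenocarcinoma. The resistant line was A549/DDP, named for DDP, an abbreviation of cisplatin. Both lines were cultured alike. The sources used here do not say how the resistant line was made. The assay was MeRIP-seq, in which fragmented RNA is pulled down with an anti-m6A antibody and sequenced beside input RNA that was not pulled down. A peak is a stretch of transcript where pull-down reads exceed those of the input. The 4 libraries were 1 immunoprecipitated and 1 input library per line, with no replicates and no treatment named. No difference between the lines was therefore tested, and every statement describes these libraries.

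m6A is written onto mRNA by a methyltransferase complex around METTL3 and METTL14, is bound by reader proteins such as the YTHDF family, and can be removed by the demethylases. ALKBH5 and FTO both belong to the AlkB family of iron- and 2-oxoglutarate-dependent dioxygenases. ALKBH5 acts on m6A in nuclear RNA. FTO removes m6A and also the methyl mark of the m6Am nucleotide next to the cap. Both proteins have been studied in lung cancer.

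The lists gave a fold enrichment and a p for each peak, both of them the authors' values, and they served here to rank peaks within a list. They held no read counts, so the depth is unknown and no error can be given for a fold. A peak missing from a list can go with a scarce transcript, lower depth or less m6A, and these cannot be told apart here. The lung epithelial identity of the lines could not be checked on expression. Of 7 markers looked up, the keratin genes KRT7, KRT8 and KRT18 had a peak in both lists, and NKX2-1, SFTPB, SFTPC and EPCAM had no listed peak. Positions are on hg19 and count from 1.

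ALKBH5 (NCBI gene 54890, plus strand of chromosome 17) carried 1 strong peak in its coding sequence in both lines, and 3 further sites in its 3′ UTR that were listed in A549/DDP and not in A549. In A549/DDP the coding peak lay at chr17:18087583-18088001, covered 419 bases in 1 exon block and had a fold of 47.2, with an authors' p of 1e-79. In A549 the coding peak lay at chr17:18087613-18087911, covered 299 bases and had a fold of 18.6, with an authors' p of 3.16e-23. The A549 peak lay wholly inside the A549/DDP peak and took up 71.4% of it. Both were listed on transcript ENST00000399138.4, of 2748 bases. The A549/DDP peak began 30 bases earlier and ended 90 bases later. Most starts moved in steps of 30 bases. Of 13600 overlapping single-block pairs on the same transcript, 92.9% had starts a multiple of 30 bases apart, within 1 base. This includes the 27.8% with the same start, and ends were not counted. The ALKBH5 coding peaks differed by the length of 1 step at the start and of 3 at the end.

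Within each list the ALKBH5 coding peak stood high. In A549/DDP, 0.281% of all distinct peaks had a higher fold, and of the 11780 peaks annotated to coding sequence alone only 5 did. By its highest fold the gene ranked 65 of 7026 genes, and by its smallest p 553. In A549, 3.89% of peaks had a higher fold, as did 171 of the 9918 peaks in coding sequence alone. There the gene ranked 631 of 6450 by fold and 1698 by p. The ranks come from lists of different length, so they place the gene within each list and give no change between the lines. No other peak of either list had the same pair of fold and p as the coding peak of that list, and no peak of another gene overlapped it.

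**Figure D1:**
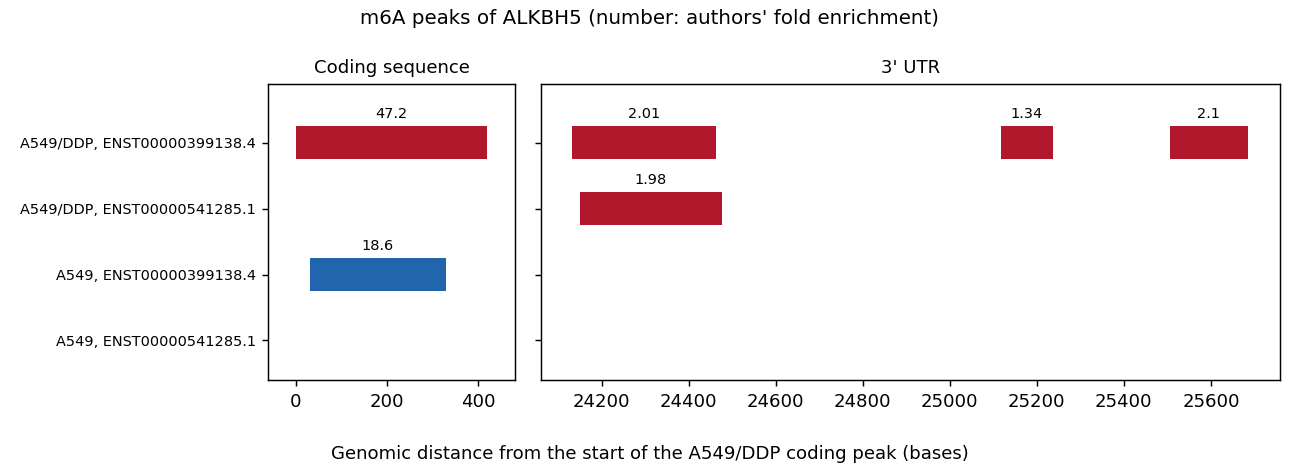
Peaks of ALKBH5 by list and transcript, plotted as genomic distance in bases from the start of the A549/DDP coding peak, with introns included and the x axis cut between the panels. Each bar is 1 distinct peak and the number above it its authors' fold, red for A549/DDP and blue for A549. Both lists hold the coding peak (folds 47.2 and 18.6), and the 4 bars in the 3′ UTR all belong to A549/DDP.

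The 3′ UTR sites of ALKBH5 in A549/DDP had folds near the lower end of the list. The first site, chr17:18111715-18112059, was built from 2 overlapping peaks on different transcripts. The peak on ENST00000399138.4 had a fold of 2.01 (the authors' p = 1.2e-08). The peak on ENST00000541285.1, a transcript of 1605 bases, had a fold of 1.98 (the authors' p = 8.32e-08). The borders of these 2 peaks lay 17 and 15 bases apart, less than 1 step of 30 bases, and they were read as 1 site. A second site, 641 bases further on at chr17:18112701-18112820, had a fold of 1.34 (the authors' p = 0.000776). After another 268 bases the last site, chr17:18113089-18113268, had a fold of 2.10 (the authors' p = 2.57e-08). Of all A549/DDP peaks, between 86.1% and 99.4% had a higher fold than these 4 peaks. By p, 3 of the 4 lay near the middle of the list, whose median p was 5.13e-08: between 47.3% and 50.8% of peaks had a smaller p. The peak of fold 1.34 lay at 90.7%.

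Hence 1 of the 5 ALKBH5 peaks in A549/DDP had at least 1 exonic base in common with an A549 peak of its strand. The 5 peaks formed 4 merged regions, of which 1 was shared. Of all distinct A549/DDP peaks, 67.2% were shared. The share was 69.3% among A549/DDP peaks annotated to the 3′ UTR alone. Among the 1591 of these whose fold was at most 2.10, the highest of the ALKBH5 sites, it was 65.5%. The single A549 peak of ALKBH5 was shared, as were 78.0% of A549 peaks. With 4 merged regions in A549/DDP and 1 in A549, ALKBH5 was among the 27.3% of the 5524 genes listed in both lines that had more regions in A549/DDP, against 17.3% with fewer. A 3′ UTR region that shared no base with the other list was found in 13.6% of these genes in A549/DDP and in 13.1% in A549. At least 3 such regions, as in ALKBH5, were found in 17 genes (0.308%) in A549/DDP and in 14 (0.253%) in A549. That limit of 3 was chosen after the ALKBH5 values were seen, so the count is a description. Only a gene with at least 3 regions could reach it, and the median gene of each list had 1. The 3′ UTR sites were the part of the ALKBH5 pattern that depended on weak peaks: 2 of the 4 peaks had a fold of at least 2, and none had one of at least 5.

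FTO (NCBI gene 79068, plus strand of chromosome 16) carried m6A peaks at a single stretch of its 3′ UTR in both lines and no listed peak elsewhere. The stretch was 1 region of 308 bases in A549, chr16:54147830-54148137, and 2 shorter regions in A549/DDP that overlapped its ends. In A549 the region consisted of 3 peaks on 3 transcripts, whose starts differed by at most 9 bases and whose ends by at most 8. The peak on ENST00000268349.7 (2799 bases) had a fold of 16.5 (the authors' p = 6.03e-10). The peak on ENST00000463855.1 (3056 bases) also had a fold of 16.5 (the authors' p = 9.77e-10). The peak on ENST00000471389.1 (11766 bases) had a fold of 14.9 (the authors' p = 2.95e-09). They were read as 1 site listed on 3 isoforms, not as 3 observations.

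In A549/DDP each of the same 3 transcripts carried 2 FTO peaks, an upstream one of high fold and a downstream one of lower fold. The upstream region, chr16:54147800-54147896, spanned 97 bases with folds of 14.1 on ENST00000268349.7 and ENST00000463855.1 and of 15.2 on ENST00000471389.1. The authors' p there was 0.000661 for the first pair and 0.000324 for the last. The downstream region, chr16:54148010-54148279, spanned 270 bases. Its folds were 2.43 on ENST00000268349.7 (the authors' p = 3.55e-05), 2.47 on ENST00000463855.1 and 3.26 on ENST00000471389.1 (the authors' p = 6.92e-05 for both). A stretch of 113 bases between the regions was covered by the A549 peaks and by no A549/DDP peak. On single transcripts that gap ran from 119 to 207 bases, and the A549 peak on the same transcript began exactly 30 bases, or 1 step, after the upstream A549/DDP peak.

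**Figure D2:**
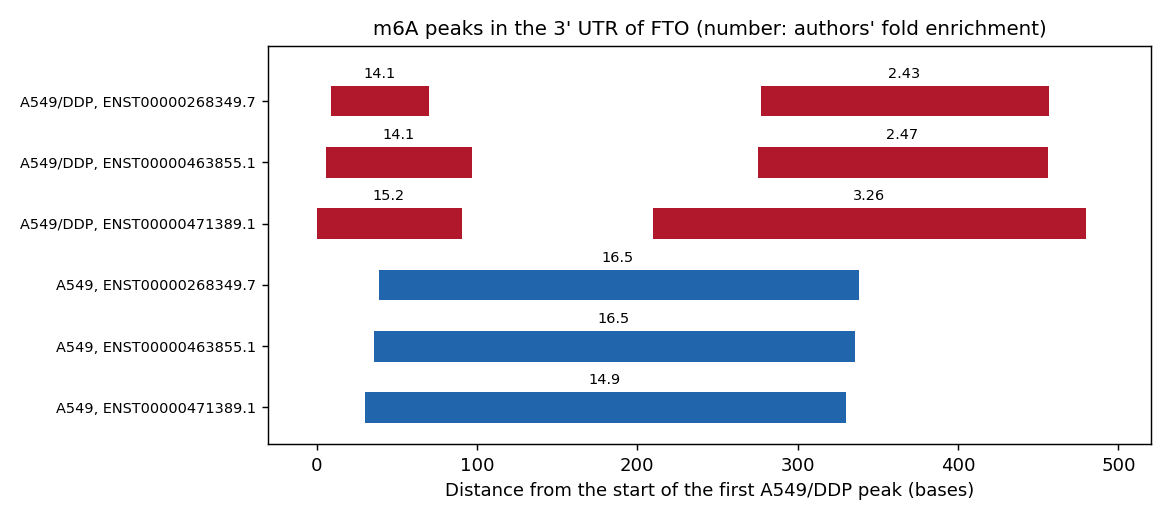
Peaks of FTO by list and transcript, plotted as distance in bases from the start of the first A549/DDP peak, with red bars for A549/DDP, blue bars for A549 and the authors' fold above each bar. On all 3 transcripts 1 A549 peak of 299 or 300 bases bridges 2 A549/DDP peaks, the upstream of fold 14.1 to 15.2 and the downstream of fold 2.43 to 3.26.

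All 6 A549/DDP peaks and all 3 A549 peaks of FTO shared bases with the other list, against 67.2% and 78.0% of all peaks in the respective lists. The FTO peaks formed 2 regions in A549/DDP and 1 in A549, each listed on the same 3 transcripts. They are thus not 6 and 3 separate observations. Within an A549/DDP region of FTO the starts lay up to 67 bases apart and the ends up to 27. The overlaps were partial. The upstream A549/DDP peaks shared 65.6% to 73.6% of their bases with the A549 peak that overlapped them most, and the downstream peaks 33.9% to 47.4%. No A549 peak of FTO shared more than 42.8% of its bases with a single A549/DDP peak. An A549 region that touched at least 2 separate A549/DDP regions, as at FTO, was found for 363 of 10733 A549 regions (3.38%). Every peak in both lists was shared for 50.6% of the genes listed in both lines, FTO among them. ALKBH5 belonged to the 23.7% whose A549 peaks were all shared while at least 1 A549/DDP peak was not.

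The high folds of FTO in A549/DDP came with weak p-values and with values that many other genes also had. The pair of fold 15.2 and an authors' p of 0.000324 occurred at 160 distinct A549/DDP peaks in 109 genes. No pair was more frequent in that list, and the pair of fold 12.9 and an authors' p of 0.00132 was equally so. The pair of fold 14.1 and an authors' p of 0.000661 occurred at 157 peaks in 110 genes. The 3 A549 peaks of FTO each had a pair of fold and p that no other peak of that list had. The fold of 16.5 alone was not particular to FTO, being also the highest A549 fold of CEP78, EFCAB11, PSD4 and USP7. By p, between 70.6% and 88.8% of A549/DDP peaks were stronger than the FTO peaks, and all 6 were weaker than the list's median p. In A549 between 41.2% and 43.8% of peaks were stronger, so all 3 FTO peaks there were stronger than the median p of 9.12e-08. FTO ranked 942 of 7026 genes by highest fold and 5568 by smallest p in A549/DDP, and 759 of 6450 and 3390 in A549. In A549/DDP the highest fold and the smallest p of FTO belonged to different regions: the fold at the smallest p was 2.43.

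**Figure D3:**
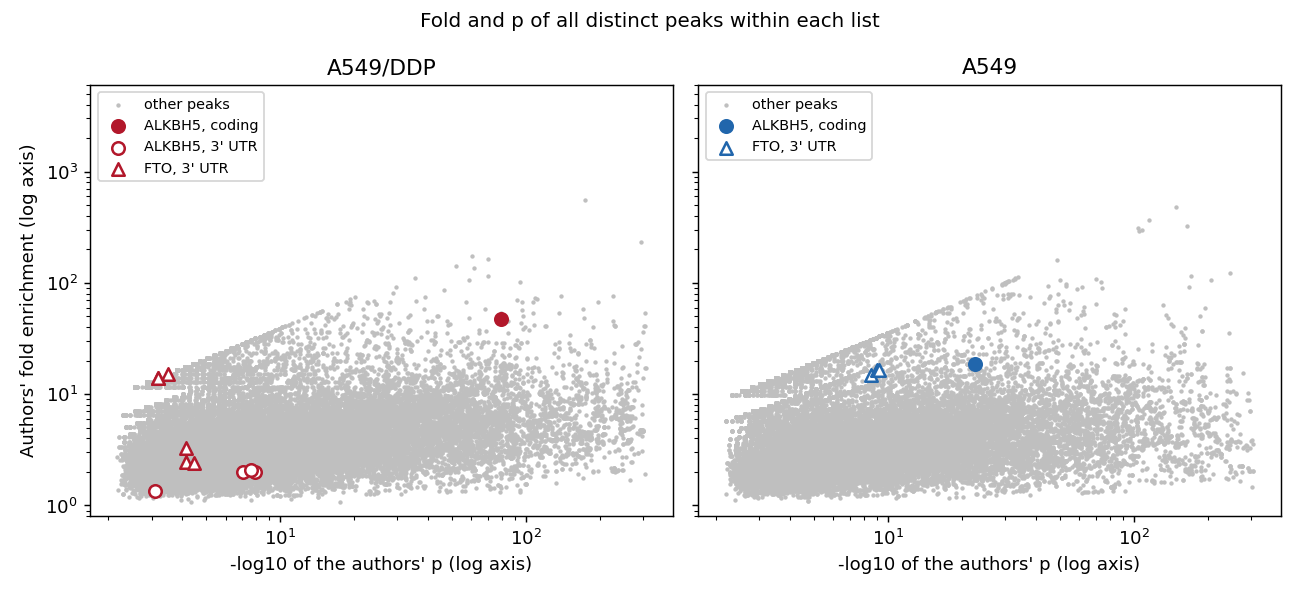
Authors' fold against −log10 of the authors' p for all distinct peaks of each list with p above 0, both on log axes, with other genes' peaks in grey and the members as coloured symbols. The ALKBH5 coding peak (filled circle) lies high in both lists. In A549/DDP the upstream FTO peaks (triangles, fold 14.1 to 15.2) lie at the weak end of p and apart from the downstream ones, and the ALKBH5 3′ UTR peaks (open circles) lie at folds of 1.34 to 2.10.

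The strongest peaks of the 2 demethylase genes lay in different parts of the transcript, although 4 of the 5 ALKBH5 peaks in A549/DDP were in the 3′ UTR, as were all FTO peaks. The strongest ALKBH5 peak lay in coding sequence alone, a class with 36.7% of A549/DDP and 36.3% of A549 peaks. The 3′ UTR alone was a class with 30.3% and 32.9%. Neither gene had a peak touching the 5′ UTR in either list. All 15 peaks consisted of 1 exon block. The median gene had 3 distinct peaks and 1 merged region in each list. In A549/DDP, 7.46% of genes had at least as many regions as the 4 of ALKBH5, and 46.9% at least as many as the 2 of FTO.

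Among the 9 genes of the AlkB family, 7 had a peak in either list. Of these 7, 5 (71.4%) had one in both lists, 2 in A549/DDP alone and 0 in A549 alone, where 69.5%, 18.9% and 11.6% of the 7952 genes with any peak were so listed. The family's share in both lists, which counts ALKBH5 and FTO themselves, was near that of all genes. ALKBH1, which acts on DNA and transfer RNA, and ALKBH3, a repair enzyme for alkylated DNA and RNA, had no listed peak. ALKBH2, which repairs alkylated DNA, had its strongest peak across the 5′ UTR and coding sequence, with a fold of 6.02 in A549/DDP and 4.03 in A549 (the authors' p = 3.16e-26 and 6.31e-20). ALKBH4, a dioxygenase reported to act on actin, had 1 peak in the 3′ UTR in each list. Its A549/DDP peak, chr7:102097278-102097811, had a fold of 6.70 and its A549 peak, chr7:102097248-102097841, one of 13.8. ALKBH6 was strongest in the 3′ UTR in A549/DDP (fold 2.57) and across coding sequence and 3′ UTR in A549 (fold 4.47, the authors' p = 1e-27).

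The 2 family genes listed in A549/DDP alone were ALKBH8 and ALKBH7. ALKBH8, which modifies transfer RNA, had 1 coding region with a highest fold of 8.21 (the authors' p = 5.62e-08). ALKBH7, a mitochondrial family member, had 1 region in the 3′ UTR, of fold 1.64 (the authors' p = 7.76e-05). ALKBH5 had the highest fold of the family in each list, followed by FTO. By smallest p, ALKBH5 was the strongest of the family in A549/DDP and second in A549, after ALKBH6. FTO came after all listed members except ALKBH7 in A549/DDP and after all of them in A549.

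Of 25 m6A writer and reader genes, 12 had a peak in both lists, 5 only in that of A549/DDP, 1 only in that of A549 and 7 in neither. The 12 were 66.7% of the 18 with any peak, near the 69.5% of all genes, and those in A549/DDP or A549 alone were 27.8% and 5.56%, beside 18.9% and 11.6%. Among them YTHDF2, a reader that promotes decay of m6A-marked mRNA, had the same authors' p as ALKBH5 in A549/DDP, 1e-79, with a fold of 6.49. Only HNRNPA2B1 and HNRNPC, genes of nuclear RNA-binding proteins, were ranked above ALKBH5 by p there, at 0.0142% and 1.54% of the list against 7.87%. In A549 HNRNPA2B1, HNRNPC and YTHDF2 ranked above ALKBH5. By highest fold ALKBH5 stood above all 17 listed writer and reader genes in A549/DDP, the next being YTHDF2 with 21.1. In A549 METTL16, a methyltransferase gene, had a higher fold, 24. FTO ranked by p below all of them in A549/DDP except METTL3, the catalytic writer, which had a single coding peak of fold 2.12 (the authors' p = 0.000112).

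**Figure D4:**
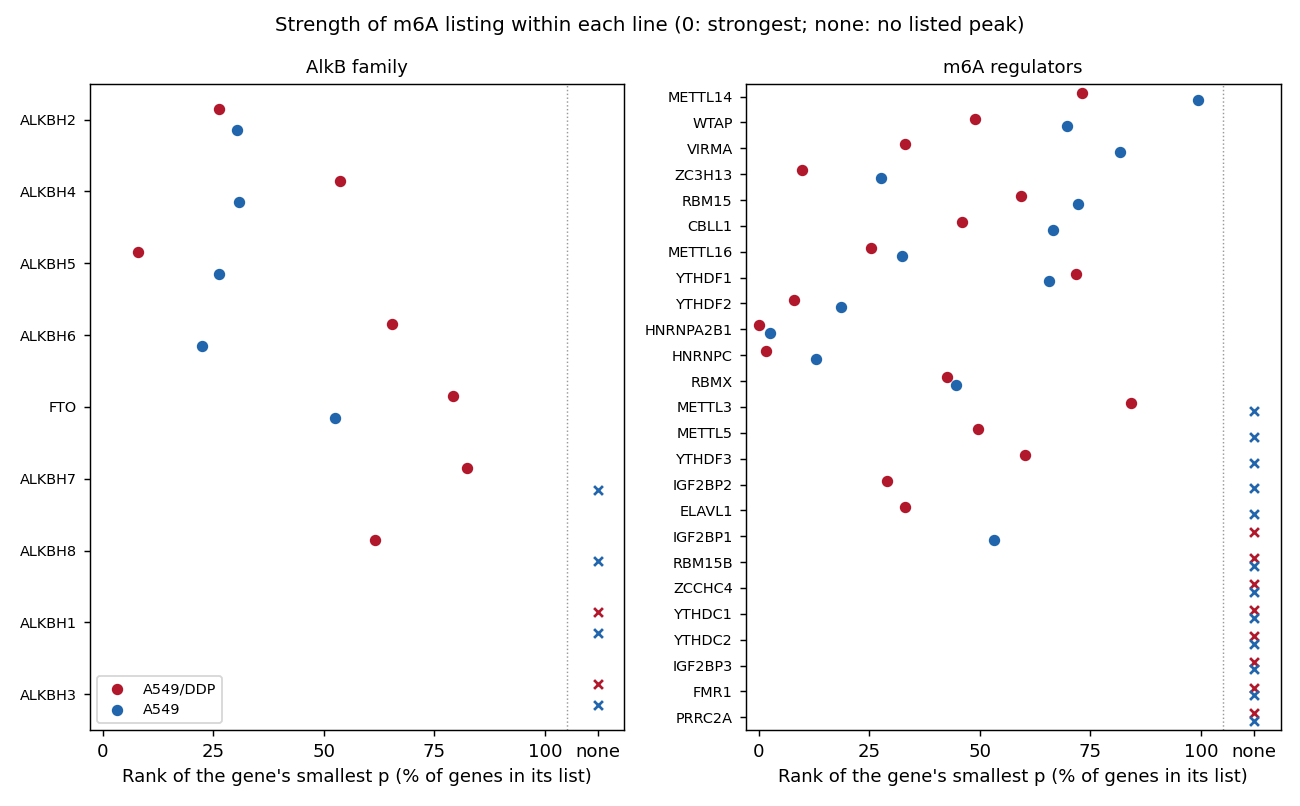
Rank of each gene's smallest p as a percentage of the genes in its own list, for the AlkB family and for m6A writers and readers, red for A549/DDP, blue for A549 and crosses for no listed peak. ALKBH5 stands at 7.87% and 26.3% and FTO at 79.2% and 52.6%, and ranks in different lists do not measure a change between the lines.

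Transcripts that other studies have reported as acted on by the demethylases were also looked up, 6 for FTO and 5 for ALKBH5. Of the FTO group, MYC, CEBPA, RARA, MZF1 and USP7 had a peak in both lists and ASB2 had none. Of the ALKBH5 group, FOXM1, a cell cycle transcription factor gene, and YAP1, the Hippo pathway effector gene, had a peak in both lists. UBE2C, which encodes a ubiquitin-conjugating enzyme of the anaphase-promoting complex, had one in A549/DDP alone, and NANOG and TIMP3 had none. Of the 8 genes with any peak, 7 (87.5%) were listed in both lines and 1 in A549/DDP alone, beside 69.5% and 18.9% of all genes with a peak. The MYC proto-oncogene had its strongest peak across coding sequence and 3′ UTR in both lists, with folds of 9.74 in A549/DDP and 11.1 in A549. USP7, a deubiquitinase gene, had it across the 5′ UTR and coding sequence, with folds of 16.4 and 16.5 (the authors' p = 2.14e-10 and 6.03e-05). CEBPA had it across coding sequence and 3′ UTR, with folds of 6.26 and 12.7 (the authors' p = 1.91e-07 and 2e-21). MZF1, a zinc finger gene, had it in the 3′ UTR, with folds of 3.63 and 4.70. These lists do not show whether ALKBH5 or FTO acted on any of these transcripts in these cells.

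The genes most like each demethylase gene were found by the distance over 4 within-list percentile ranks, the fold and the p of the gene's strongest peak (that of smallest p) in each of the 2 lines, among the 5524 genes listed in both. The nearest to ALKBH5 were SAMD1 (distance 7.25 percentile points), PAPOLA (8.73) and APOL2 (9.81). SAMD1, which encodes a protein that binds unmethylated CpG islands, had folds of 115 in A549/DDP and 35.5 in A549 across the 5′ UTR and coding sequence. PAPOLA, the poly(A) polymerase gene, had folds of 29.3 and 17.8 in the same place. The apolipoprotein L gene APOL2 had 29.3 and 26.4 across coding sequence and 3′ UTR. None of these 3 had its strongest peak in coding sequence alone, as ALKBH5 did. The nearest to FTO were SKIL (distance 12.2), IGHMBP2 (14.2) and DNASE1 (16.3). SKIL, a corepressor gene of TGF-β signalling, had a fold of 3.01 in A549/DDP in coding sequence and 14.6 in A549 in the 3′ UTR. The helicase gene IGHMBP2 had folds of 2.93 and 14.5, and the nuclease gene DNASE1 2.59 and 12.4, both with their strongest A549/DDP peak in the 3′ UTR. Likeness over 2 lines is a thin description, and with highest folds in place of these ranks 0 of the 3 genes were kept for either demethylase.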

How the data were processed

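MeRIP-seq of 4 libraries was used, 1 immunoprecipitated and 1 input library each of A549/DDP and A549. Per the submitters' processing notes, the aligner was HISAT2 and the build hg19. For the peak caller, its cut-off and the gene models, the sources used here name none. Per the file headers, each deposited list gives per peak and transcript a linear fold enrichment, taken as the ratio of pull-down to input. The p-value per peak is also the authors' deposited value, with no word on adjustment. Depth is unknown.

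Of 7957 gene symbols, 7829 matched a RefSeq table of GRCh38.p14, which was used for names only. A peak was shared if it had at least 1 exonic base in common with the other list on its strand. Overlapping peaks of a list were merged into regions. Overlap code (Python 3.11.15, pandas 2.3.3) was checked by direct counting on 339 peaks and on 162 shifted ones, with 0 errors.

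The named genes are both members, the listed genes of the gene lists, and the 3 nearest genes by within-list ranks. Members and gene lists were chosen with earlier results of these data known. Alternatives were folds of at least 2 or 5, a p at or under the list's median, the 13659 strongest peaks of each list, merged regions and other overlap rules.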

Additional observations from a re-analysis of the deposited data

How the results depend on the processing

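No paired analysis was possible because each group had 1 library and no result comes from a test. Of the 128 values recomputed under other settings 80 kept their size by the rules used and 48 moved. Small shifts counted as kept, such as the 5 ALKBH5 peaks in A549/DDP that gave 4 merged regions. The cause of the moves was not tested beyond what each setting removes. Both ALKBH5 coding peaks, of folds 47.2 and 18.6, stayed in under every limit on fold and p. The settings could drop a peak but not alter its deposited fold. These values, counted among the 80, therefore say only that the 2 peaks passed each limit. Some other values among the 80 could not move either. The count of 0 ALKBH5 3′ UTR peaks in A549 is 1 of them, since the limits only remove peaks. ALKBH5 peaks in A549/DDP fell from 5 to 3 at a fold of at least 2 and at a p up to the list's median (2 of them in the 3′ UTR), and to 1 (0 in the 3′ UTR) at a fold of at least 5 and among the 13659 strongest peaks of each list. That last limit kept a smaller share of the 32069 A549/DDP peaks than of the 27319 A549 peaks, so it was stricter for A549/DDP. FTO peaks in A549/DDP fell from 6 to 3 at a fold of at least 5, all 3 shared. They fell to 0 at the median p and among the strongest peaks, where 0 of the 3 A549 peaks were then shared. Merging left 2 FTO regions in A549/DDP and 1 in A549. With 50% of a peak's bases required, 3 of the 6 and 0 of the 3 FTO peaks were shared, and with identical borders 0 peaks of either gene. The highest FTO fold in A549/DDP went from 15.2 to 2.43 when read at the smallest p.

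AlkB genes listed in both lines numbered 3 at a fold of at least 5, at the median p and among the strongest peaks. In A549/DDP alone there was 1 at a fold of at least 2 and 0 under both limits on p, where 2 were listed in A549 alone. Writers and readers listed in both numbered 5 at a fold of at least 5 and 6 under both limits on p, and 8 were in A549/DDP alone at the median p. Reported substrates numbered 4 in both, 2 in A549/DDP alone and 2 in A549 alone under both limits on p. Of the genes most like ALKBH5 and FTO, 0 and 0 were kept when highest folds were compared.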
